A study of Populus tremula x Populus alba with 20 samples.

Results

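The genes described here are 21 of the 31823 genes counted in apical buds of hybrid poplar. They were chosen by their measured levels: their transcripts were more abundant after chilling in wild-type (WT) buds, and after chilling they were more abundant still in every library of TEML1 or TEML2 overexpressors. The rule that chose them works on CPM, a gene's count scaled to a fixed library total. It asks for a WT mean after chilling at least 1.5 times that before it, a chilled CPM above both WT libraries in all 8 overexpressor libraries, a chilled overexpressor mean at least 1.3 times that of WT, and a mean chilled CPM of at least 1. It leaves out genes whose 8 overexpressor libraries already exceeded both WT libraries before chilling. The rule uses these levels, so the contrasts of overexpressors with WT at either harvest and of chilled with unchilled buds are given as descriptions, with no test.

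The libraries come from the apical buds of Populus tremula x Populus alba plants. Overexpressors were TEML1ox, as lines TEML1_1ox and TEML1_2ox, and TEML2ox, as lines TEML2_1ox and TEML2_2ox, and they were set against WT. Buds of each line and of WT were taken after 8 weeks of short days and 2 further weeks of short days at 4 °C (called CH2), or after the 8 weeks of short days alone (SD8), both at ZT7. There were 2 libraries per line and harvest, so each harvest had 4 TEML1ox, 4 TEML2ox and 2 WT libraries. All plants had first grown in long days at a warm temperature, for 6 weeks by one label and 4 by another. The replicates are called biological, and the labels give 3 buds in one place and 2 plants in another as the content of a replicate. The promoter driving the transgenes is not given in the sources used here. CH2 buds were also older than SD8 buds by the length of the cold treatment, so cold and the added short days cannot be told apart.

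Poplar buds stop growing and become dormant in short days, and prolonged cold then releases that dormancy so that warmth can restart growth. Cold also raises transcripts of many genes that protect cells from freezing and that change hormone and sugar metabolism. The overexpressed genes encode TEMPRANILLO-like proteins, by the title of the series. The TEMPRANILLO genes of Arabidopsis encode RAV-family DNA-binding proteins that repress flowering and gibberellin synthesis. The files do not pair gene identifiers with names, so no function is given to any gene below, the gene lists for cold response, dormancy release, abscisic acid and cell cycle could not be applied, and neither the overexpressed genes nor bud marker genes could be looked up.

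Library totals ran from 35779227 to 39352645 counts. Both TEML2_2ox libraries stood apart at SD8, with scores of -51.4 and -49.6 on the first principal component of that harvest (51.8% of the variance) against -20.7 to 40.2 in the other 8 libraries. Only some of the results that rest on those libraries are also given without them. Between CH2 and SD8 the WT libraries differed in composition, so that the median gene of at least 1 CPM was lower by 0.28 on the log2(CPM + 1) scale at CH2 by column totals and by 0.01 by TMM-scaled totals. The ratios of CH2 to SD8 below are by column totals, as the rule asks, while log2 fold changes from edgeR use TMM. By TMM-scaled totals the WT ratios were higher by 0.31 on the log2 scale. Which scaling is closer to the true change was not tested.

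The set was narrowed step by step. Of all 31823 genes, 4552 had a WT CH2/SD8 ratio of at least 1.5. In 121 of these, 2.66%, all 8 overexpressors exceeded both WT libraries at CH2, and in 787 all 8 were below both. Over all 31823 genes, 7.44% had all 8 overexpressors above both WT libraries at CH2. Among genes of at least 1 mean CPM at CH2, 10.2% had all 8 overexpressors above both WT libraries and 10.3% had all 8 below. The ratio of 1.3 left 28 genes and the minimum level 24, and 3 of those were dropped because their overexpressors already exceeded WT at SD8, by ratios of 1.97, 2.42 and 1.73. The wider group from which the members come is given as description only. Its choice and its CH2 ratio both use the 2 WT libraries at CH2, so a high WT value admits a gene and lowers its ratio. The same holds for the 121 and 787 genes above. The choice also uses the 2 WT libraries at SD8, where a low WT value admits a gene and raises its SD8 ratio. Among the 3128 genes with a WT CH2/SD8 ratio of at least 1.5 and at least 1 CPM at CH2, the median overexpressor/WT ratio was 0.936 at CH2 and 0.981 at SD8.

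The threshold falls within a continuous range of ratios. Just inside the ratio of 1.3 stood PtXaAlbH.06G005700.v5.1 at 1.304 and PtXaAlbH.10G003100.v5.1 at 1.309, and just outside it stood PtXaAlbH.03G108800.v5.1 at 1.297 and PtXaAlbH.02G169600.v5.1 at 1.286. Just inside the chilling ratio of 1.5 stood PtXaAlbH.13G108000.v5.1 at 1.53 and PtXaAlbH.10G024100.v5.1 at 1.56, and just outside it PtXaAlbH.01G182200.v5.1 at 1.416 and PtXaAlbH.09G041800.v5.1 at 1.412. Beside the 21 members, 90 genes failed only the ratio of 1.3, and 623 failed only the chilling ratio.

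After chilling, overexpressor means were 1.304 to 1.93 times WT means, with a median of 1.37. No member reached 2 times WT, and 6 reached 1.5 times. The separation between libraries was narrower than the ratio of means. The lowest overexpressor library was 1.00 to 1.25 times the highest WT library, with a median of 1.09, and in 11 members it was less than 1.1 times. The members were spread over almost the whole range of transcript levels, with mean CH2 levels between 1.27 and 8279 CPM and a median of 24.7 CPM. In bulk buds, more cells of a type and more RNA per cell cannot be told apart.

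PtXaAlbH.04G107100.v5.1 had both the highest overexpressor/WT ratio at CH2 and the largest chilling ratio in WT. At CH2 the 8 overexpressor libraries ran from 8.00 CPM through a median of 11.3 to 22.7 CPM, against 7.39 and 5.65 CPM in WT. The groups did not overlap, though the 2 TEML1_1ox libraries alone were at 22.7 and 8.00 CPM. At SD8 its overexpressor libraries ran from 0.140 through 0.544 to 2.21 CPM, against 0.236 and 0.460 CPM in WT. The transcript was scarce before chilling, and overexpressors lay on both sides of WT there, with 6 above both WT libraries and 2 below. Its mean CH2/SD8 ratio was 19.0 in overexpressors and 18.7 in WT. By line it was 29.1 in TEML1_1ox, 36.9 in TEML1_2ox, 9.003 in TEML2_1ox and 19.9 in TEML2_2ox, so the lines lay on both sides of WT. TEML2_1ox replicate 1, at 2.21 CPM, set much of the SD8 mean, and without it the overexpressor CH2/SD8 ratio was 28.5 and the overexpressor/WT ratio at SD8 was 1.26, against 1.90 with it.

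PtXaAlbH.13G054400.v5.1 was the most abundant member and ranked 3 among all genes at CH2. It alone made up 72.9% of the summed CH2 CPM of the members. At CH2 the overexpressors ran from 7409 through 8865 to 10315 CPM (mean 8878 ± 1052, SD, n = 8), against 5850.2 and 5909 CPM in WT (mean 5879.6 ± 41.6, SD, n = 2). Every overexpressor library was well above WT after chilling. At SD8 the overexpressors ran from 1735 through 2518 to 2879.9 CPM, against 2917 and 2456 CPM in WT. There 3 overexpressor libraries were below both WT libraries and none was above both.

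PtXaAlbH.10G003100.v5.1, the other member of highest mean level, had 1285 to 1563 CPM in overexpressors at CH2, with a median of 1412 CPM, against 1072 and 1104 CPM in WT. At SD8 it had 71.9 to 152 CPM in overexpressors, with a median of 94.4 CPM, against 154 and 129.7 CPM in WT. The order of the group means was thus turned round between harvests: the overexpressor/WT ratio of means was 1.31 at CH2 and 0.729 at SD8. The libraries overlapped at SD8, where 5 overexpressor libraries were below both WT libraries and 3 lay between them. The mean CH2/SD8 ratio was 13.8 in overexpressors and 7.66 in WT.

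PtXaAlbH.03G139000.v5.1 had the lowest overexpressor/WT ratio of the set before chilling. At CH2 overexpressors ran from 164 through 235 to 271 CPM, against 143 and 155 CPM in WT. At SD8 they ran from 19.1 through 32.1 to 50.4 CPM, against 62.3 and 41.7 CPM in WT. Its ratio was 1.52 at CH2 and 0.669 at SD8, with 5 overexpressor libraries below both WT libraries and none above both at SD8. The mean CH2/SD8 ratio was 6.50 in overexpressors and 2.87 in WT. Here too the larger chilling ratio combined a higher chilled level with a lower unchilled one.

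PtXaAlbH.04G086200.v5.1 had the second largest chilling ratio in WT and differed little between genotypes before chilling. At CH2 overexpressors ran from 117 through 127 to 143 CPM, against 93.7 and 94.3 CPM in WT. At SD8 they ran from 7.99 through 10.3 to 12.9 CPM, against 9.48 and 10.3 CPM in WT. Overexpressors lay around WT at SD8, with 4 libraries above both and 3 below both. The mean CH2/SD8 ratio was 12.3 in overexpressors and 9.52 in WT.

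The members of lowest level at CH2 rest on few counts. PtXaAlbH.04G093700.v5.1 had 39 to 82 counts in the overexpressor libraries at CH2, or 1.02 to 2.14 CPM with a median of 1.31, against 26 and 33 counts, or 0.684 and 0.884 CPM, in WT. At SD8 it had 0 to 16 counts in overexpressors, against 8 and 17 in WT. TEML2_2ox replicate 1 had 0 counts there, which allows up to 0.0773 CPM for counting error only. PtXaAlbH.04G149600.v5.1 had 1.25 to 2.13 CPM in overexpressors at CH2, against 1.18 and 1.18 CPM in WT. At SD8 it had 0.513 to 0.838 CPM in overexpressors and 0.814 and 0.676 CPM in WT. For both, the nearest libraries of the 2 groups at CH2 differed by a few counts.

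PtXaAlbH.10G024100.v5.1, near the lower limit of the chilling ratio, had 20.2 to 32.2 CPM in overexpressors at CH2, with a median of 26.1, against 18.6 and 19.6 CPM in WT. Before chilling it had 8.13 to 14.9 CPM in overexpressors and 12.6 and 11.9 CPM in WT. At SD8 6 overexpressor libraries were below both WT libraries and 2 were above both. The 7 members not named had mean CH2 levels of 1.69 to 169.5 CPM, overexpressor/WT ratios of 1.32 to 1.62 at CH2 and 0.865 to 1.65 at SD8, and WT CH2/SD8 ratios of 1.61 to 3.46.

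**Figure D1:**
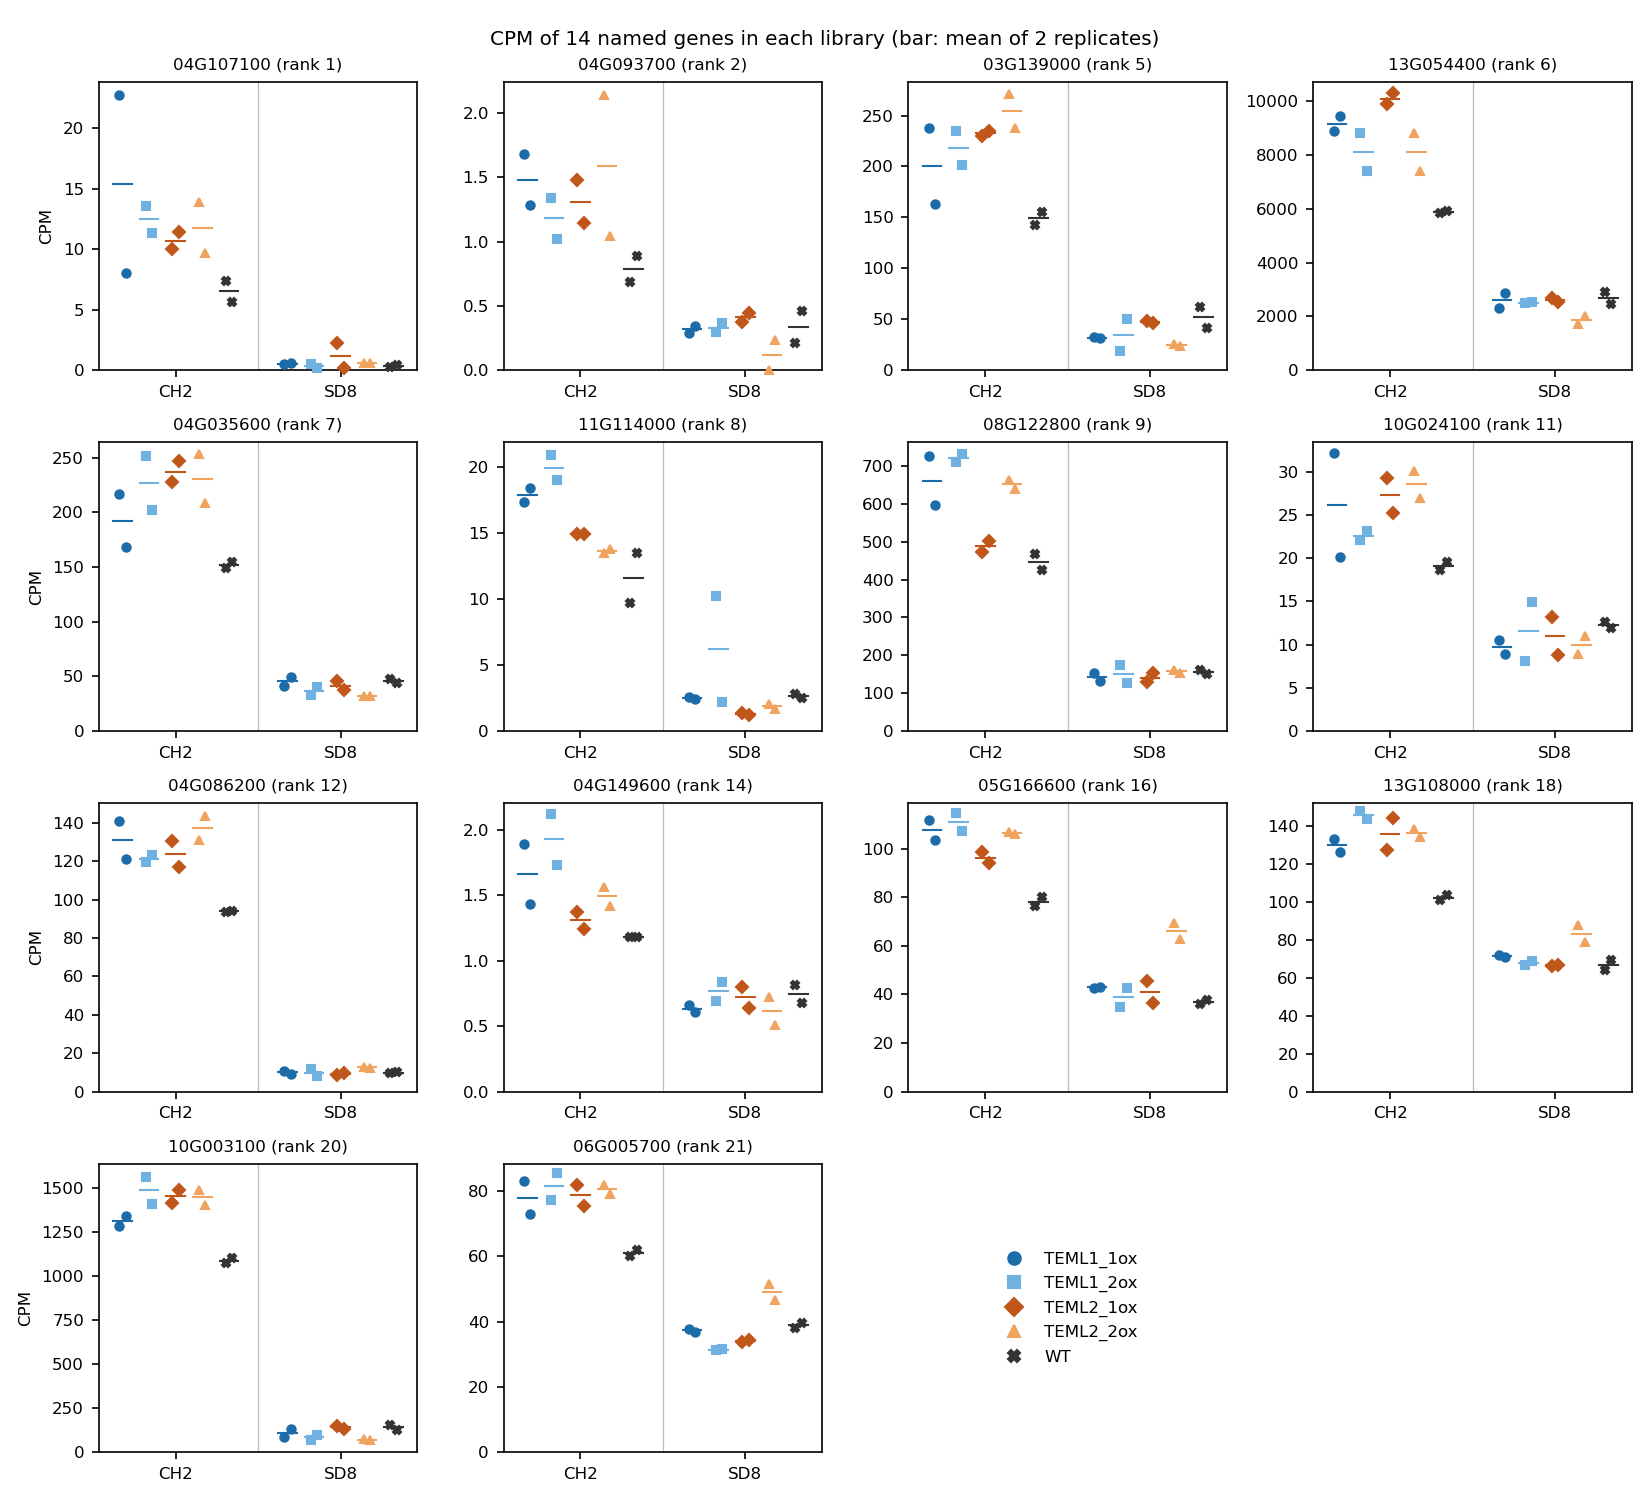
CPM of each of the 14 named members in every library, on linear axes from 0, with CH2 left of SD8 and overexpressor lines left of WT within each harvest; each point is 1 library. At CH2 all 8 overexpressor points lie above both WT points in every panel, as the rule asks, while at SD8 the points of the 2 genotypes overlap in level or lie in either order.

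Before chilling the members had no common direction. The rule uses the WT libraries at SD8 too, so the SD8 ratios of the members are not free of the choice. The overexpressor/WT ratio of means at SD8 had a median of 0.976 and ran from 0.669 to 1.90, above 1 in 10 members and below 1 in 11. Counted over the 8 overexpressor libraries and 21 members, 53 of 168 values lay above both WT libraries, 66 below both and 49 between them. These values share the same WT libraries and are not independent, so the split is description only. No member had more than 6 of 8 overexpressor libraries on 1 side of WT. The rule bars 8 of 8 above but not 8 of 8 below, which 8.76% of all genes of at least 1 mean CPM at SD8 showed, against 2.5% with 8 of 8 above. The summed CPM of the members was 2354 to 3483 in overexpressors and 3074 to 3594 in WT at SD8, and 10643 to 13531 in overexpressors and 8211 to 8310.0 in WT at CH2. These sums mainly follow PtXaAlbH.13G054400.v5.1.

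The 4 overexpressor lines had like medians over the members. At CH2 this follows in part from the rule, which asks every overexpressor library to exceed WT. At CH2 the median ratio to WT was 1.41 in TEML1_1ox, 1.43 in TEML1_2ox, 1.34 in TEML2_1ox and 1.36 in TEML2_2ox. At SD8 it was 0.967 in TEML1_1ox, 0.981 in TEML1_2ox, 0.940 in TEML2_1ox and 1.01 in TEML2_2ox. The line mean was below the WT mean at SD8 in 12 members for TEML1_1ox, 12 for TEML1_2ox, 16 for TEML2_1ox and 10 for TEML2_2ox. No line led throughout: at CH2 the highest line mean was in TEML1_1ox for 3 members, TEML1_2ox for 7, TEML2_1ox for 6 and TEML2_2ox for 5. TEML1_1ox replicate 2 was the lowest overexpressor library at CH2 in 7 members, and without it the rule finds 36 genes.

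**Figure D2:**
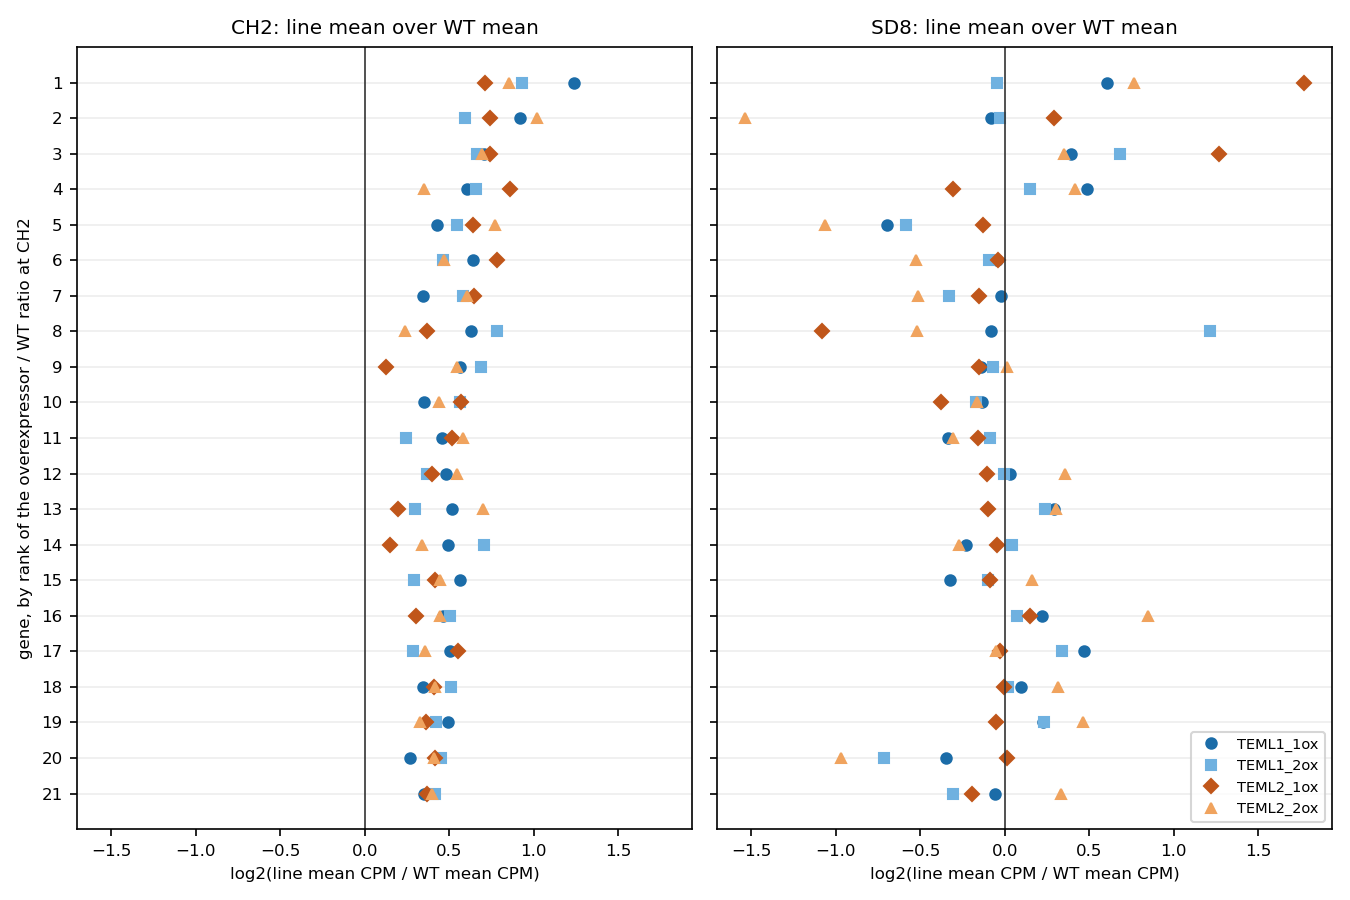
Ratio of each line's mean CPM to the WT mean for the 21 members, ordered by their overexpressor/WT ratio at CH2, with CH2 and SD8 shown separately; each symbol is the mean of 2 libraries of a line. At CH2 the ratios lie above 1, as the rule asks, with line medians between 1.34 and 1.43, and at SD8 they scatter on both sides of 1.

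The size of the chilling change followed from both harvests. The rule sets a higher overexpressor level at CH2 and limits it at SD8. A larger CH2/SD8 ratio in overexpressors than in WT thus follows in part from the rule. The WT CH2/SD8 ratio had a median of 2.19 and ran from 1.53 to 18.7, reaching 2 in 14 members and 3 in 6. The overexpressor ratio had a median of 3.43 and ran from 1.89 to 19.0. By line, the median was 2.97 in TEML1_1ox, 3.21 in TEML1_2ox, 3.20 in TEML2_1ox, 3.22 in TEML2_2ox and 2.19 in WT. In 14 members the ratio of every line exceeded that of WT, and the share over all genes is not given here. In the other 7 at least 1 line had a ratio at or below that of WT, although its chilled level was higher.

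**Figure D3:**
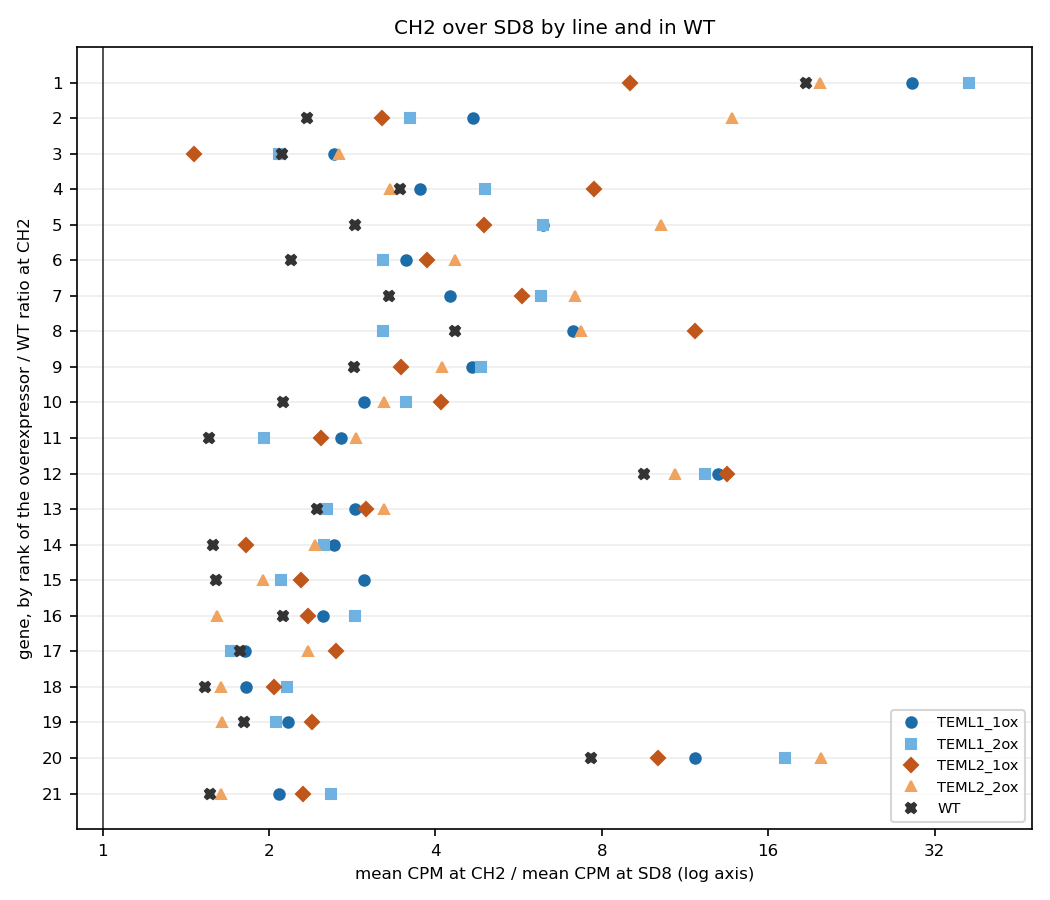
CH2/SD8 ratio of mean CPM, by column totals on a log axis, for the 21 members in the 4 overexpressor lines and WT; each symbol is a ratio of 2 means of 2 libraries. WT ratios run from 1.53 to 18.7 and lie left of all 4 lines in 14 members, an order that follows in part from the rule.

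The log2 fold changes that edgeR fitted on TMM-scaled libraries describe the same contrasts, and their size in the members follows from the rule. At CH2 the median of the members was 0.47 for TEML1ox against WT and 0.47 for TEML2ox against WT, beside 0.01 and 0.00 over all genes. At SD8 it was -0.01 for TEML1ox and -0.02 for TEML2ox. For CH2 against SD8 it was 1.97 in TEML1ox, 2.15 in TEML2ox and 1.44 in WT, beside -0.06, -0.07 and -0.06 over all genes.

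The rule did not use the difference between constructs directly. It did ask every library of both constructs to exceed WT at CH2, so it left out genes raised in a single construct or line. Few calls and small differences among overexpressors at CH2 may thus follow in part from the rule. The same limit applies below wherever constructs or lines are compared with CH2 levels. At CH2 no member passed edgeR's quasi-likelihood test between TEML1ox and TEML2ox at an adjusted p under 0.05, where 26 of 25696 genes (0.101%) did. The member log2 fold changes ran from -0.22 to 0.41, 10 above 0 and 11 below, with a median absolute value of 0.07 beside 0.09 over all genes. At an unadjusted edgeR p under 0.05 there were 4 members, beside 2829 of all 25696 genes, and DESeq2 called 1 member.

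That member, PtXaAlbH.11G114000.v5.1, had the smallest edgeR p. At CH2 it had 17.3, 18.4, 20.9 and 19.0 CPM in TEML1ox, against 14.9, 14.9, 13.5 and 13.8 CPM in TEML2ox, while WT had 9.71 and 13.5 CPM. All 4 TEML1ox libraries were above all 4 TEML2ox libraries, and the lowest TEML2ox library was level with the higher WT library to 3 digits. The log2 fold change was 0.41 ± 0.10 (SE, n = 4 libraries each, from 2 lines per construct). The edgeR adjusted p was 0.160 and the DESeq2 adjusted p 0.0195, both taking libraries of a line as independent. By limma-voom with line as a random block no member passed, where 2 of 25696 genes did. At SD8 PtXaAlbH.11G114000.v5.1 had 2.59, 2.45, 10.2 and 2.21 CPM in TEML1ox, against 1.36, 1.17, 2.06 and 1.67 CPM in TEML2ox, while WT had 2.84 and 2.51 CPM. Again the TEML1ox libraries were above the TEML2ox libraries, 1 of them by far, at a log2 fold change of 1.53 ± 0.49 and an edgeR adjusted p of 0.894. Without that library, TEML1_2ox replicate 1, the log2 fold change was 0.65, and the overexpressor/WT ratio of means at SD8 was 0.722, against 1.11 with it. At SD8 no member passed between constructs, where 1 of 26947 genes (0.00371%) did. There 2 members had an unadjusted edgeR p under 0.05, beside 1456 of all 26947 genes.

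The chilling change of TEML1ox was compared with that of TEML2ox as an interaction in a fit of all 20 libraries. No gene of 27337 (0%) passed an edgeR adjusted p of 0.05, while 1761 genes, 2 of them members, had an unadjusted p under 0.05 and DESeq2 called 27 genes and no member. The member with the smallest p was PtXaAlbH.05G166600.v5.1, whose log2 chilling change was larger in TEML1ox by 0.46 ± 0.17 (SE), with an edgeR adjusted p of 0.755. It had 112, 104, 115 and 107 CPM in TEML1ox, against 98.6, 94.0, 107 and 106 CPM in TEML2ox at CH2. At SD8 it had 42.7, 43.2, 34.9 and 42.7 CPM in TEML1ox, against 45.4, 36.4, 69.4 and 62.9 CPM in TEML2ox. The 2 highest unchilled values were both from TEML2_2ox. Without both TEML2_2ox libraries of each harvest, still no gene passed in this comparison.

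Lines of 1 construct were compared next, in fits with each line as its own group of 2 libraries. Between TEML1_1ox and TEML1_2ox no member passed an edgeR adjusted p of 0.05 at CH2 (20 of 25696 genes, 0.0778%) or at SD8 (6 of 26947 genes, 0.0223%). An unadjusted edgeR p under 0.05 was found for 2 members at CH2, beside 4356 genes, and 3 at SD8, beside 2692 genes. The smallest p at CH2 was for PtXaAlbH.13G108000.v5.1, with 134 and 126 CPM in TEML1_1ox and 148 and 144 CPM in TEML1_2ox, a log2 fold change of -0.18 ± 0.06 and an edgeR adjusted p of 0.204. DESeq2 called 475 genes and no member at CH2, and 364 genes and no member at SD8. The smallest p at SD8 was for PtXaAlbH.06G005700.v5.1, with 37.8 and 37.0 CPM in TEML1_1ox and 31.2 and 31.7 CPM in TEML1_2ox, a log2 fold change of 0.23 ± 0.08 and an edgeR adjusted p of 0.358. The lack of calls at SD8 did not hold in every fit with 1 library left out, where a line has only 1 library.

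Between TEML2_2ox and TEML2_1ox no member passed at CH2, where 17 of 25696 genes (0.0662%) did. There 3 members had an unadjusted edgeR p under 0.05, beside 1761 of all 25696 genes. PtXaAlbH.08G122800.v5.1 came closest, with 662 and 641 CPM in TEML2_2ox, against 474 and 502 CPM in TEML2_1ox, at a log2 fold change of 0.39 ± 0.08 (SE, n = 2 each). Its edgeR adjusted p was 0.301, and DESeq2, which called 81 genes, gave 0.00108. Both TEML2_1ox libraries lay near WT, which had 468 and 426 CPM, while the TEML1ox libraries had 726, 596, 709.7 and 733 CPM. At SD8 the same gene was within 125 to 173 CPM in overexpressors and at 162 and 151 CPM in WT.

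At SD8 the TEML2ox lines differed in 6 of the 21 members at an edgeR adjusted p under 0.05. Of all 26947 genes, 5483 (20.3%) did, 3005 (11.2%) higher in TEML2_2ox and 2478 (9.2%) lower. The members were 2 higher and 4 lower, and their median absolute log2 fold change was 0.41 beside 0.25 over all genes. Libraries of these lines did not overlap in 67.4% of all genes of at least 1 mean CPM at SD8, so separation was common there and is not particular to the members.

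The members lower in TEML2_2ox were PtXaAlbH.10G003100.v5.1, PtXaAlbH.03G139000.v5.1, PtXaAlbH.13G054400.v5.1 and PtXaAlbH.04G035600.v5.1, the last of them named after its values were seen. PtXaAlbH.10G003100.v5.1 had 73.3 and 71.9 CPM in TEML2_2ox, against 152 and 135 CPM in TEML2_1ox, a log2 ratio between the lines of -1.10 ± 0.20 by edgeR (SE; adjusted p = 0.00498). TEML2_1ox was level with WT, which had 154 and 129.7 CPM, and TEML2_2ox was below it. PtXaAlbH.03G139000.v5.1 had 25.6 and 24.1 CPM in TEML2_2ox, against 48.7 and 46.4 CPM in TEML2_1ox, which edgeR put at -1.05 ± 0.32 on the log2 scale (adjusted p = 0.0428). Its TEML1_2ox libraries were at 19.1 and 50.4 CPM, so a spread as wide occurred within 1 line. PtXaAlbH.13G054400.v5.1 had 1735 and 1999.8 CPM in TEML2_2ox, against 2679 and 2549 CPM in TEML2_1ox, which edgeR put at -0.60 ± 0.13 on the log2 scale (adjusted p = 0.0110). PtXaAlbH.04G035600.v5.1 had 32.1 and 32.4 CPM in TEML2_2ox, against 45.5 and 37.3 CPM in TEML2_1ox, which edgeR put at -0.48 ± 0.13 on the log2 scale (adjusted p = 0.0255). At CH2 the last of these had 253 and 208 CPM in TEML2_2ox and 228 and 247 CPM in TEML2_1ox, with 149 and 155 CPM in WT.

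The members higher in TEML2_2ox were PtXaAlbH.05G166600.v5.1 and PtXaAlbH.06G005700.v5.1. PtXaAlbH.05G166600.v5.1 had 69.4 and 62.9 CPM in TEML2_2ox, against 45.4 and 36.4 CPM in TEML2_1ox, which edgeR put at 0.58 ± 0.12 on the log2 scale (adjusted p = 0.00792). PtXaAlbH.06G005700.v5.1 had 51.7 and 46.5 CPM in TEML2_2ox, against 33.8 and 34.4 CPM in TEML2_1ox, which edgeR put at 0.41 ± 0.08 on the log2 scale (adjusted p = 0.00653). For both, TEML2_2ox was above every other overexpressor library and above WT at SD8, where WT had 36.1 and 37.6 CPM of the first and 38.2 and 39.7 CPM of the second. For PtXaAlbH.06G005700.v5.1 the other 6 overexpressor libraries, at 31.2 to 37.8 CPM, were all below WT. PtXaAlbH.13G108000.v5.1 had the same order, with 87.8 and 79.1 CPM in TEML2_2ox and 66.5 and 66.8 CPM in TEML2_1ox, but its edgeR adjusted p was 0.0879.

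These calls depend on single libraries. Without TEML2_2ox replicate 1 no member passed, and edgeR adjusted p was then 0.0556 for PtXaAlbH.10G003100.v5.1, 0.0716 for PtXaAlbH.06G005700.v5.1, 0.0785 for PtXaAlbH.05G166600.v5.1, 0.109 for PtXaAlbH.13G054400.v5.1 and 0.142 for PtXaAlbH.04G035600.v5.1. Without TEML2_1ox replicate 1 or replicate 2, fewer members passed. In each of these fits fewer of all genes passed too. PtXaAlbH.03G139000.v5.1 lost its call most readily, including when either TEML1_1ox or any TEML2ox library was left out, where edgeR's adjusted p reached 0.183, and by DESeq2 (adjusted p = 0.0716). PtXaAlbH.04G035600.v5.1 lost it in 3 of the fits with 1 library left out, including that without TEML2_2ox replicate 2. PtXaAlbH.13G054400.v5.1 also lost it in 3 such fits. The direction was kept in each of these fits.

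**Figure D4:**
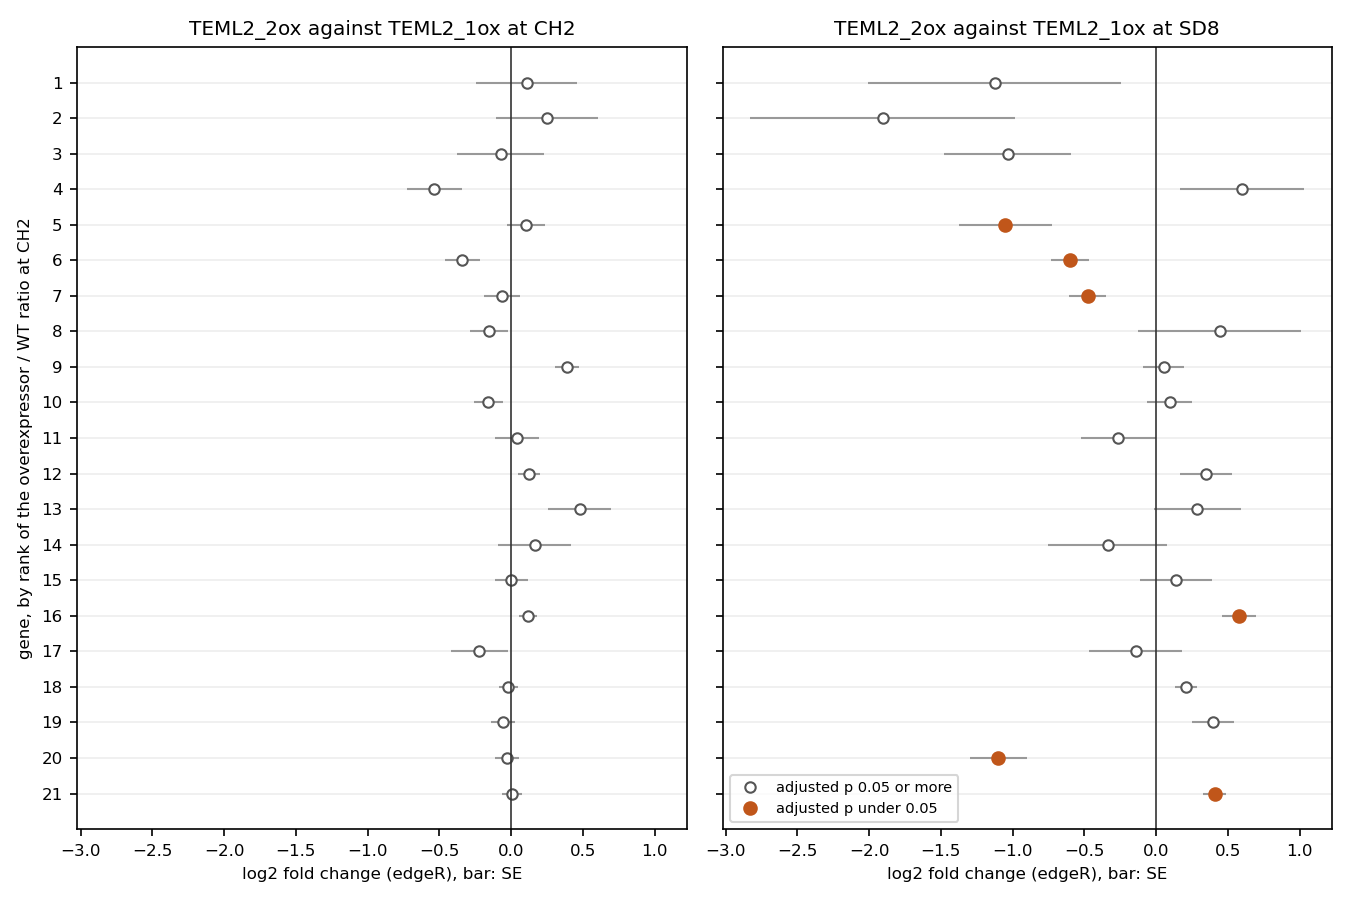
Log2 fold change of TEML2_2ox over TEML2_1ox for the 21 members at CH2 and SD8 from edgeR, with bars of 1 SE and filled symbols for an adjusted p under 0.05. At CH2 no member is past that threshold, which may follow in part from the rule. At SD8 6 are, 2 higher and 4 lower, with PtXaAlbH.10G003100.v5.1 at -1.10 and PtXaAlbH.05G166600.v5.1 at 0.58.

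The chilling changes of the 2 TEML2ox lines were compared as well, a comparison added after the values of both harvests were seen. It called 1061 of 27337 genes (3.88%) at an edgeR adjusted p under 0.05, and 2 of the 21 members. The chilling change of PtXaAlbH.10G003100.v5.1 was larger in TEML2_2ox than in TEML2_1ox by 1.06 ± 0.24 on the log2 scale (SE, edgeR adjusted p = 0.0250). At CH2 it had 1487 and 1405 CPM in TEML2_2ox, against 1416 and 1488 CPM in TEML2_1ox, so the difference was at SD8. That of PtXaAlbH.06G005700.v5.1 was smaller by 0.41 ± 0.10 (edgeR difference -0.41, adjusted p = 0.0316), with 81.9 and 79.1 CPM in TEML2_2ox and 81.7 and 75.5 CPM in TEML2_1ox at CH2. Both directions were kept when any library was left out, but the call of PtXaAlbH.10G003100.v5.1 was lost without any 1 of the 8 TEML2ox libraries (edgeR adjusted p 0.0558 to 0.104). The call of PtXaAlbH.06G005700.v5.1 was lost without 6 of them, the edgeR adjusted p then reaching 0.158.

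The spread over the 8 overexpressor libraries is described for each harvest on its own, since the rule bears on the spread at CH2. The median coefficient of variation of the members was 13.9% at CH2, beside 9.12% over all genes of at least 1 mean CPM there. At SD8 it was 20.0%, beside 12.0% over all genes of at least 1 mean CPM there. Without the TEML2_2ox libraries the member median at SD8 was 14.5%. That value is over 6 libraries and cannot be set beside the 12.0% of all genes, which is over 8.

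The members shared no feature that could be read from their annotation here. The characters of the identifier before the letter G were 04 in 5 members, while 5.77% of all genes carry them, and the sources used here do not say what they stand for. Of the other members, 3 each carried 10, 11 and 13 there. PtXaAlbH.11G021500.v5.1 and PtXaAlbH.11G021700.v5.1 stood 2 rows apart in the deposited table, the closest of any pair, and whether reads are shared between them was not tested.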

How the data were processed

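RNA of apical buds was sequenced from 20 libraries made with a stranded mRNA kit, per the labels' protocols. The authors deposited raw counts (integers) for every gene in a table for each harvest, and HISAT2 is named without a version in the submitters' processing notes. The sources used here do not name the counting program, genome build, strand setting or filters, so reads of near-identical or overlapping genes may be split or lost. The column taken for WT replicate 1 at SD8 has a digit more in its name than the label. Replicates differed by more than counting noise (chi-square per degree of freedom 6.75 to 29.6), and p-values treat libraries of a line as independent.

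CPM used column totals, as the rule for members states. All 21 members passed the low-count filter and were tested in every fit. Counts were fitted with edgeR 4.0.16 in R 4.3.3 (filterByExpr, TMM, glmQLFit and glmQLFTest), with Benjamini-Hochberg adjustment over all genes tested and a threshold of 0.05. SEs were derived from the F statistic and are approximate. Constructs were compared in fits of 3 groups per harvest, lines in fits of 5 groups, and chilling changes in fits of all 20 libraries. The scripts were tested on simulated data. Alternatives included DESeq2 1.42.0, limma-voom (limma 3.58.1), RLE scaling, other filters, a replicate block and each library left out. Members, lists and tests were chosen with earlier results of these data known. Named members are, per comparison, up to 2 higher and 2 lower members past the threshold with the largest fold changes and a mean log2 CPM of at least 1, or else the 1 with the smallest p, and the extremes of level and ratio. No annotation was used here, so no sequence is shown. Precision is limited by the 2 WT libraries and 2 libraries per line.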

Additional observations from a re-analysis of the deposited data

Results flagged for a closer look

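Among the 14 named members, 5 of 56 groups of 4 libraries held a library far from the other 3, and chance alone gives about 1 in 20 groups. PtXaAlbH.11G114000.v5.1 was at 10.2 CPM in TEML1_2ox replicate 1 at SD8, where the other TEML1ox libraries had 2.21 to 2.59 CPM. PtXaAlbH.08G122800.v5.1 was at 596 CPM in TEML1_1ox replicate 2 at CH2, where the other TEML1ox libraries had 709.7 to 733 CPM. PtXaAlbH.05G166600.v5.1 was at 34.9 CPM in TEML1_2ox replicate 1 at SD8, where the others had 42.7 to 43.2 CPM. PtXaAlbH.04G107100.v5.1 was at 0.140 CPM in TEML1_2ox replicate 2 at SD8, where the others had 0.503 to 0.554 CPM. PtXaAlbH.04G086200.v5.1 was at 141 CPM in TEML1_1ox replicate 1 at CH2, where the others had 119 to 123 CPM.

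The change with chilling differed between the TEML2ox lines in PtXaAlbH.10G003100.v5.1, larger in TEML2_2ox by 1.06 on the log2 scale, and in PtXaAlbH.06G005700.v5.1, with a difference of -0.41, by the edgeR interaction test given above.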

How the results depend on the processing

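The choice of members depended on scaling and on WT libraries. The rule found 21 genes, but 44 with CPM from TMM-scaled totals (20 of them among the 21), 39 with RLE-scaled totals (19 among the 21) and 6 with an overexpressor/WT ratio of 1.5. Leaving out 1 library gave 20 to 42 genes, the most without WT replicate 2 at CH2, 36 without TEML1_1ox replicate 2 at CH2, and 28 without WT replicate 1 at CH2, of which 17 were among the 21. Leaving out both TEML2_2ox libraries of each harvest gave 23, 19 of them among the 21. The median overexpressor minus WT difference of the members in log2(CPM + 1), 0.42 at CH2 and -0.05 at SD8, moved by less than the spread between libraries under every alternative run.

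Between lines and constructs, DESeq2 called 1 member for TEML1ox against TEML2ox at CH2 and 1 for TEML2_2ox against TEML2_1ox at CH2, where edgeR called 0. DESeq2 also called more genes in all, 379 against 26 between constructs at CH2. For TEML2_2ox against TEML2_1ox at SD8, 3 members were called at an adjusted p under 0.01, and leaving out 1 library gave 0 to 7. For TEML1_1ox against TEML1_2ox at SD8 leaving out 1 library gave 0 to 1. For the chilling change of TEML2_2ox against TEML2_1ox, 0 members passed at 0.01 and leaving out 1 library gave 0 to 4, the most without either TEML1_2ox library at SD8. The cause was not tested. No log2 fold change followed for a named member in these comparisons changed sign. The overexpressor/WT ratio of means at SD8 did cross 1 in some members when 1 library was left out. It went from 1.11 to 0.722 in PtXaAlbH.11G114000.v5.1 without TEML1_2ox replicate 1. Without WT replicate 2 it went from 0.874 to 1.39 in PtXaAlbH.04G093700.v5.1 and from 1.15 to 0.873 in PtXaAlbH.15G024700.v5.1. The split of members above and below 1 at SD8 thus depends on single libraries.

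Replicate numbers did not pair the samples: deviations of same-numbered libraries correlated between -0.19 and 0.24 at CH2 and between -0.26 and 0.21 at SD8. With the replicate block, 5 members were called between TEML2_2ox and TEML2_1ox at SD8, beside 4982 of all 26947 genes. PtXaAlbH.03G139000.v5.1 was lost there (edgeR adjusted p = 0.0567). In the chilling change 2 members were called, beside 834 of all 27337 genes.

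Depth limits the 4 members under 5 CPM at CH2, and 2 WT libraries limit every contrast with WT.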
